A study of Homo sapiens with 6 samples.

Results

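The genes described here encode carriers of amino acids, neurotransmitters and related small molecules in U87, an established human glioblastoma cell line. They are the protein-coding rows of the deposited table named as members of the solute carrier families SLC1, SLC3, SLC6, SLC7, SLC36, SLC38 and SLC43, which gave 48 of 32299 rows. By their labels, 3 libraries came from U87 cells made to overexpress tau, a microtubule-binding protein, and 3 from U87 cells transfected with a control vector. They are called tau-labelled and control-labelled here, and the comparison asks which transporter genes differ between both. All 6 libraries are poly(A)-selected RNA of the same line. No label names the vector, the tau isoform, a clone or separate cultures, so the p-values cover only the spread among these 6 libraries, and that spread may be technical.

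Cells import amino acids against their gradients with carriers driven by sodium or protons, and swap them across the membrane with exchangers. The SLC7 light chains work only as a pair with an SLC3 heavy chain, and the cytosolic supply that results is read by the kinase complex mTORC1 at the lysosome. In brain, glutamate, glycine and GABA released by neurons are cleared largely by SLC1 and SLC6 carriers of astrocytes, and glioma lines are known for altered glutamate and cystine exchange.

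MAPT, the gene of tau, ran against the labels and was lower in the tau-labelled libraries, with 145, 150 and 176 counts in tau-labelled libraries 1, 2 and 3, against 279, 391 and 345 in control-labelled libraries 1, 2 and 3 (log2 fold change -1.20, SE 0.21, edgeR adjusted p = 0.00151). By exact permutation of the labels (two-sided, on the log2(FPKM + 0.5) scale) p was 0.1, and 3 libraries against 3 cannot give a smaller one. The groups are therefore named by their labels only, and every direction is that of the libraries labelled tau relative to those labelled control. Total counts ran from 58229083 to 65512119 per library. Of the markers of a glioma line, VIM, CD44 and NES were present, GFAP and OLIG2 lay under 1 FPKM, S100B and SOX2 were near 0 and CDKN2A had 0 counts. NES averaged 2.95 FPKM in tau-labelled and 12.1 FPKM in control-labelled libraries (log2 fold change -2.15, edgeR adjusted p = 3.49e-06). VIM averaged 1784 and 1346 FPKM (0.29, edgeR adjusted p = 0.0161) and CD44 94.7 and 84.6 FPKM (0.04, edgeR adjusted p = 0.736), in the same order. Summed FPKM of 4 endothelial markers was 0.418 to 0.520 in the tau-labelled and 2.54 to 2.97 in the control-labelled libraries. Summed FPKM of the microglial markers, nearly all of it CSF1R, was 1.09 to 1.42 in the tau-labelled and 5.75 to 6.29 in the control-labelled libraries, with AIF1 at 0. For 5 astrocyte markers in the table, which include SLC1A2 and SLC1A3, it was 11.3 to 13.4 in the tau-labelled and 17.9 to 32.1 in the control-labelled libraries. For neuronal, oligodendrocyte and epithelial markers the sums were 2.42 to 2.99, 0.218 to 0.268 and 0.164 to 0.201 in the tau-labelled and 6.43 to 7.85, 0.117 to 0.149 and 0.682 to 0.860 in the control-labelled libraries. Most of each difference lay in 1 gene. GAP43 averaged 1.46 FPKM in tau-labelled and 6.06 FPKM in control-labelled libraries, MBP 0.229 and 0.0908, and KRT19 0.0329 and 0.512. The neuronal markers RBFOX3, SYT1, SNAP25 and SYP overlapped between the groups. The part of these differences in the results was not tested, and in bulk RNA fewer cells of a type and less RNA per cell cannot be told apart.

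SLC43A3, SLC38A1, SLC3A2, SLC36A1, SLC38A7, SLC7A6 and SLC6A15 rose in the tau-labelled libraries, and SLC6A12, SLC6A9, SLC1A1, SLC1A3, SLC6A6 and SLC1A5 were among those that fell. Genes are said to have risen or fallen where edgeR's quasi-likelihood test on the counts gave an adjusted p below 0.05 over all 17927 genes tested. Of the 48 members, 37 had enough counts to be tested, and 7 of these rose (18.9%), where 21.3% of all genes tested rose. Another 12 fell (32.4%), where 21.4% of all genes tested fell, and 18 did not pass. With limma on log2(FPKM + 0.5), run on the 11129 genes with a mean of at least 1 FPKM, 36.1% rose and 20.9% fell. Together 19 of the 37 changed (51.4%), where 42.7% of all genes tested did. Of the 25 tested members whose higher group averaged 1 FPKM or more, 7 rose and 7 fell, and of the 12 below that level none rose and 5 fell. With edgeR run on the 11129 genes with a mean of at least 1 FPKM, 27.1% rose and 26.8% fell. In that run 24 members were tested, of which 7 rose and 7 fell, near those shares. No share of all genes was computed for the level below. The median log2 fold change of the 37 was -0.06, and that of all genes 0.004. The FPKM values of the tau-labelled libraries lay wholly above those of the control-labelled ones for 9 of the 37 and wholly below for 12, where 32.5% and 23.6% of all genes tested did so, 56.1% in either direction. FPKM, the authors' unit, is counts scaled to gene length and library size, and carries no TMM scaling (edgeR's composition factor), so a fitted log2 fold change differs a little from the ratio of FPKM values. On the log2(FPKM + 0.5) scale of limma the median of its 11129 genes lay at 0.15, and fitted values are given relative to the TMM scale.

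**Figure D1:**
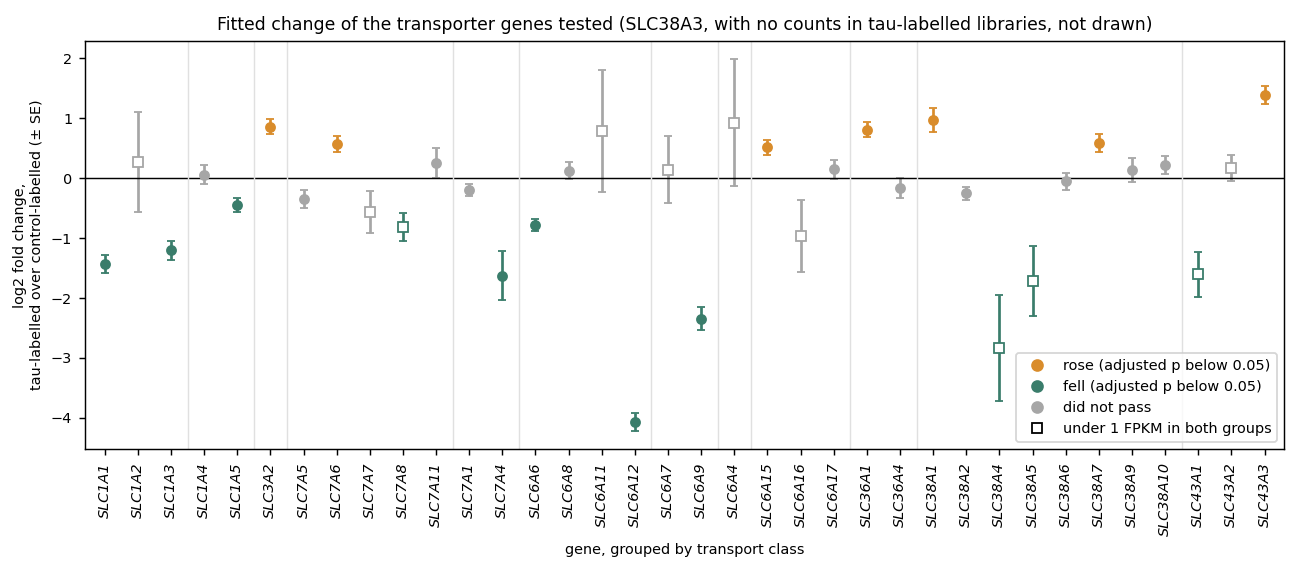
Fitted log2 fold change (tau-labelled over control-labelled libraries, y axis, bars ± SE) of 36 of the 37 tested transporter genes, grouped by transport class along the x axis. SLC38A3, at 0 counts in the tau-labelled libraries and at least 75.2-fold lower, is not drawn. Among those drawn the falls reach -4.06 for SLC6A12 and the rises 1.39 for SLC43A3, and open squares mark genes under 1 FPKM in both groups.

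The promoters shown are those of the heavy chain gene that rose, of a light chain gene that rose and another that did not pass, and of 3 transmitter carriers that fell. Each is the 250 bases before a RefSeq start on GRCh38.p14, 5′ to 3′ on the gene's strand. For a gene with several listed starts, the start with the most motif matches is shown. Capitals mark matches on either strand to any of 5 motifs. These are the ATF4 element TGATGNAA, the antioxidant response element core TGACNNNGC, the AP-1 site TGACTCA, the E-box CACGTG and the hypoxia element core ACGTG.
SLC3A2, heavy chain, chr11:62881449-62881698, + strand: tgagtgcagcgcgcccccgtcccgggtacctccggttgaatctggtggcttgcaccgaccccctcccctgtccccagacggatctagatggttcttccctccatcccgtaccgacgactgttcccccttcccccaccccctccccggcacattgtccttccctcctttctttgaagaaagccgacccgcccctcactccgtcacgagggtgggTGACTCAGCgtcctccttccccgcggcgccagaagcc
SLC7A6, light chain y+LAT2, chr16:68264276-68264525, + strand: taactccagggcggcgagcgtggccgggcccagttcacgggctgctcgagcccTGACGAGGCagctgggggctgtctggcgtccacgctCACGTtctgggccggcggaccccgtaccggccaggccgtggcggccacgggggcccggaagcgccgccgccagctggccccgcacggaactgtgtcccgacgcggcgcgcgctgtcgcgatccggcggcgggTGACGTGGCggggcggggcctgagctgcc
SLC7A5, light chain LAT1, chr16:87869508-87869757, − strand: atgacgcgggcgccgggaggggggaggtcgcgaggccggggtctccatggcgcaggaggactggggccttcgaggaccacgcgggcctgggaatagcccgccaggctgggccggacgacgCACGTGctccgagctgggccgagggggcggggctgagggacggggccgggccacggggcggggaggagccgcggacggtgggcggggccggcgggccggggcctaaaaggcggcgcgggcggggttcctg
SLC1A3, glutamate carrier EAAT1, chr5:36606704-36606953, + strand: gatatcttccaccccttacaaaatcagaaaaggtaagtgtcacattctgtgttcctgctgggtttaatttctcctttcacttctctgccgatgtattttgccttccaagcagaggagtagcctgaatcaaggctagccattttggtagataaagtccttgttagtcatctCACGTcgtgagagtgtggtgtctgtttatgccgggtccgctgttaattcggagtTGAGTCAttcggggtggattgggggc
SLC1A1, glutamate carrier EAAT3, chr9:4490218-4490467, + strand: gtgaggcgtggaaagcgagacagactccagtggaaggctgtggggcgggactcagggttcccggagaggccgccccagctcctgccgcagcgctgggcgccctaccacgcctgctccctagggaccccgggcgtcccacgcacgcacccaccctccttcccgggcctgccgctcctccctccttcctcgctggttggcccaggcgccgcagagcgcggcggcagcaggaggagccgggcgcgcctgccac
SLC6A9, glycine carrier GLYT1, chr1:44031463-44031712, − strand: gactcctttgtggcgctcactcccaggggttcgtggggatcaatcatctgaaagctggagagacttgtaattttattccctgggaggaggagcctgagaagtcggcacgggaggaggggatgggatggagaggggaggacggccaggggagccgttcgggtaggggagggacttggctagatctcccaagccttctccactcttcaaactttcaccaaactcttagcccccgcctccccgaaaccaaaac

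In the SLC3A2 window, the only one of its 3 listed starts with a match to any of the 5, bases 37 to 29 before the start match the antioxidant core, and the first letters of that match are an AP-1 site. The SLC7A6 window holds 2 antioxidant cores, at 197 to 189 and at 29 to 21 bases before the start, and the second contains a hypoxia core. Another hypoxia core lies apart from them at 161 to 157 bases before the start. The capitals of the SLC7A5 window are an E-box at 130 to 125 bases before the start, which contains the hypoxia core on both strands. The SLC1A3 window, 1 of 3 listed starts that all hold a match, has an AP-1 site and a hypoxia core, while the SLC1A1 and SLC6A9 windows match none of the 5. Promoters were found for 37 of the 48 members, with 58 starts, and these are not the same 37 as those tested. Of them 5 rose, 8 fell and 16 did not pass, and the rest were not tested. The AP-1 site occurred in 9 of the 58 (15.5%), against 4.20% of 35116 promoters in the RefSeq table, and the antioxidant core in 6 (10.3%, against 10.9%). The ATF4 element occurred in 2 (3.45%, against 3.14%), the E-box in 9 (15.5%, against 6.34%) and the hypoxia core in 17 (29.3%, against 18.5%). By call, the AP-1 site was in 2 of 10 starts of members that rose, 1 of 16 that fell and 4 of 24 that did not pass. In the same order the E-box was in 1, 4 and 3 starts and the hypoxia core in 3, 7 and 5, where the 7 belong to 6 genes. Of the 17116 promoters of genes tested, 3.34% held the AP-1 site, 11.8% the antioxidant core and 1.87% the ATF4 element. The E-box was in 8.14% of them and the hypoxia core in 22.0%. A match is a description of the letters and not a bound site, and the hypoxia core is also counted inside each E-box.

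Among the glutamate carriers, both genes with more than trace counts were lower in the tau-labelled libraries. SLC1A1 encodes EAAT3, which takes up glutamate and cysteine (chromosome 9, 4490468 to 4587469 on GRCh38). It had 2.01, 2.19 and 2.05 FPKM in the tau-labelled libraries, against 4.28, 5.25 and 6.06 FPKM in the control-labelled ones. All 3 tau-labelled values lay below all 3 control-labelled ones, with a log2 fold change of -1.43 (SE 0.15, edgeR adjusted p = 1.01e-04). SLC1A3 encodes EAAT1, the glutamate carrier known from astrocytes and radial glia. It had 1.71, 1.89 and 1.46 FPKM in tau-labelled and 2.89, 3.46 and 4.49 FPKM in control-labelled libraries. The groups did not overlap and the log2 fold change was -1.21 (SE 0.15, edgeR adjusted p = 3.02e-04). SLC1A2, which encodes EAAT2, the main glutamate carrier of forebrain astrocytes, had at most 39 counts in a library and did not pass. SLC1A7, the retinal EAAT5, had at most 8 counts and was not tested.

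The neutral amino acid exchangers of the same family include SLC1A5, which encodes the glutamine carrier ASCT2 and was the most abundant member in the control-labelled libraries. It had 75.6, 71.9 and 82.8 FPKM in the tau-labelled libraries, against 95.1, 107 and 87.3 FPKM in the control-labelled ones. The groups did not overlap, but the difference was small (log2 fold change -0.45, SE 0.12, edgeR adjusted p = 0.0135). It did not pass without control-labelled library 2 (-0.38, edgeR adjusted p = 0.0772), without tau-labelled library 1 (-0.42, 0.0614) or without tau-labelled library 2 (-0.39, 0.0695). With offsets for GC content and transcript length it stood at -0.17 (edgeR adjusted p = 0.124). SLC1A4, the serine and alanine exchanger ASCT1, averaged 4.22 ± 0.369 FPKM in tau-labelled and 3.75 ± 0.696 FPKM in control-labelled libraries (SD, n = 3 each), which overlapped, and did not pass.

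The heavy chain gene SLC3A2 rose, and of its 5 light chain partners SLC7A6 rose, SLC7A8 fell and the others did not pass. SLC3A2 encodes 4F2hc (CD98), which brings the light chains to the cell surface (chromosome 11, 62856004 to 62888880). It had 40.4, 37.3 and 45.0 FPKM in tau-labelled libraries, against 20.9, 22.2 and 19.3 FPKM in control-labelled ones. The groups stood far apart relative to their spread (log2 fold change 0.86, SE 0.12, edgeR adjusted p = 4.95e-04). SLC3A1, the heavy chain rBAT of kidney and gut, had at most 4 counts in a library and was not tested.

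SLC7A5 encodes LAT1, which imports leucine and other large neutral amino acids in exchange for glutamine. It had 12.03, 11.4 and 12.5 FPKM in tau-labelled and 12.9, 17.3 and 11.9 FPKM in control-labelled libraries. Control-labelled library 2 stood above the others and the groups overlapped, so that SLC7A5 did not pass (log2 fold change -0.34, SE 0.15, edgeR adjusted p = 0.0958), though it did without control-labelled library 3 (-0.48, edgeR adjusted p = 0.0253) and with upper-quartile scaling (-0.45, 0.0407). Its near-identical pseudogenes SLC7A5P1 and SLC7A5P2 held 7 and 26 counts over the tau-labelled libraries and 3 and 21 over the control-labelled ones, so how shared reads were split is uncertain. SLC7A6 encodes y+LAT2, which exports arginine in exchange for glutamine. It had 11.01, 10.6 and 8.91 FPKM in tau-labelled libraries, against 5.13, 6.22 and 7.63 FPKM in control-labelled ones. It rose without overlap of the groups (log2 fold change 0.57, SE 0.14, edgeR adjusted p = 0.00910). SLC7A6OS, a gene on the other strand that overlaps SLC7A6 by 17321 bases, rose too (1.05, edgeR adjusted p = 0.00289), and without strand in the counting reads of both cannot be told apart.

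The remaining light chains were of low abundance. SLC7A11 encodes xCT, which imports cystine in exchange for glutamate. It had 0.830, 1.12 and 1.06 FPKM in tau-labelled and 0.471, 0.997 and 0.878 FPKM in control-labelled libraries. The groups overlapped and it did not pass (log2 fold change 0.25, SE 0.25, edgeR adjusted p = 0.461). SLC7A8, the light chain LAT2, fell with 0.374, 0.322 and 0.324 FPKM in tau-labelled and 0.660, 0.520 and 0.481 FPKM in control-labelled libraries (-0.82, SE 0.23, edgeR adjusted p = 0.0163). Its call ended without control-labelled library 1 (-0.65, edgeR adjusted p = 0.0694) and without tau-labelled library 2 (-0.77, 0.0581). SLC7A7, which encodes y+LAT1, had 0.136 to 0.199 FPKM in tau-labelled and 0.158 to 0.262 FPKM in control-labelled libraries and did not pass.

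As a description of balance, the FPKM of SLC3A2 divided by the sum of its 5 light chain partners was 1.66, 1.58 and 1.96 in tau-labelled libraries, against 1.08, 0.879 and 0.916 in control-labelled ones. The level of this ratio depends on the gene lengths used, and on the longest GENCODE v29 transcripts it was 4.22, 4.04 and 5.05 in tau-labelled and 2.79, 2.30 and 2.36 in control-labelled libraries. The light chain sum itself overlapped between groups, at 23.0 to 24.4 FPKM in tau-labelled and 19.4 to 25.2 FPKM in control-labelled libraries. SLC7A6 made up 42.9% ± 3.58 of that sum in tau-labelled and 29.1% ± 6.27 in control-labelled libraries (SD, n = 3 each), and SLC7A5 made up 50.7% ± 3.40 in tau-labelled and 63.8% ± 6.38 in control-labelled ones.

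**Figure D2:**
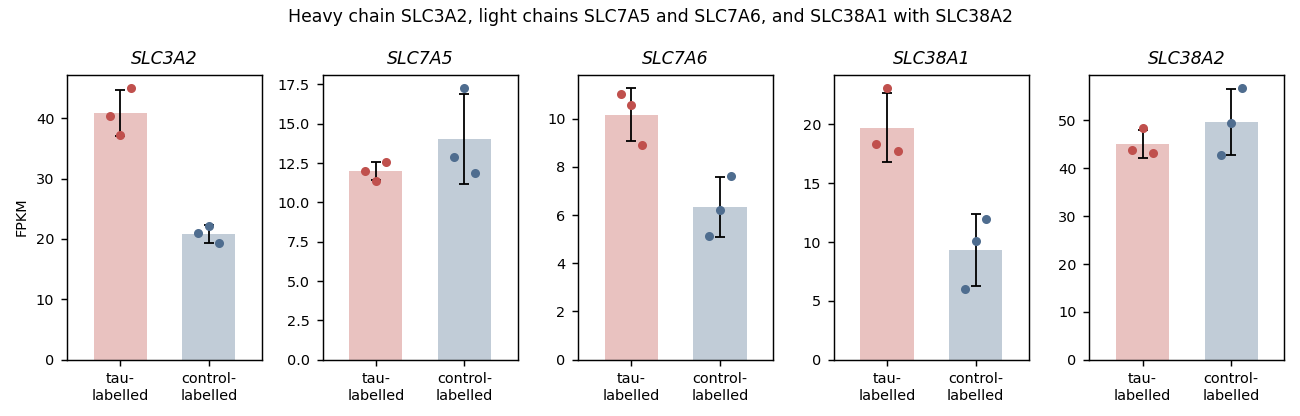
FPKM of SLC3A2, SLC7A5, SLC7A6, SLC38A1 and SLC38A2 in each library, tau-labelled left and control-labelled right. Bars are means with SD (n = 3) and points are libraries. SLC3A2, SLC7A6 and SLC38A1 separate by label, and SLC7A5 and SLC38A2 overlap.

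Carriers of cationic amino acids showed a fall in the low-abundance member and no call in the abundant one. SLC7A1 encodes CAT1, the widespread importer of arginine and lysine. It had 17.8, 18.7 and 17.5 FPKM in tau-labelled and 19.6, 18.6 and 18.8 FPKM in control-labelled libraries, and the overlapping groups did not pass (log2 fold change -0.20, SE 0.10, edgeR adjusted p = 0.133). Offsets for GC content and length gave it a call (-0.31, edgeR adjusted p = 0.00417), as did upper-quartile scaling (-0.30, 0.0367). SLC7A4, a relative of the cationic carriers (chromosome 22, 21028718 to 21032561), had 1.501, 0.428 and 1.15 FPKM in tau-labelled libraries, against 3.86, 2.03 and 2.90 FPKM in control-labelled ones. It varied widely within both groups, which did not overlap (-1.63, SE 0.41, edgeR adjusted p = 0.0107). SLC7A2, another arginine carrier, had 0 counts in the 6 libraries and was not tested.

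The SLC6 family, sodium- and chloride-driven carriers of transmitters and osmolytes, held the steepest falls among members of at least 1 FPKM. SLC6A12 encodes BGT1, which carries betaine and GABA (chromosome 12, 190077 to 214570). It had 0.285, 0.309 and 0.290 FPKM in tau-labelled libraries, against 4.14, 4.83 and 4.79 FPKM in control-labelled ones. Behind these values stood 99 to 109 counts in each tau-labelled and 1502 to 1739 in each control-labelled library, and SLC6A12 was 16.7-fold lower (log2 fold change -4.06, SE 0.15, edgeR adjusted p = 6.82e-07). On the log2(FPKM + 0.5) scale of limma, which understates low genes, it was -2.68. Its neighbour SLC6A13, the GABA carrier GAT2, lies 6050 bases away and had at most 4 counts in a library.

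SLC6A9 encodes GLYT1, which clears glycine from the extracellular space (chromosome 1, 43991500 to 44031467). It had 1.48, 1.34 and 1.62 FPKM in tau-labelled and 6.95, 8.46 and 5.43 FPKM in control-labelled libraries. It was 5.08-fold lower with no overlap (log2 fold change -2.35, SE 0.19, edgeR adjusted p = 2.34e-05). ENSG00000230615, a row that overlaps SLC6A9 by 1054 bases on the other strand, also fell (-2.29, edgeR adjusted p = 1.40e-04), with 254 counts over the tau-labelled and 1170 over the control-labelled libraries. CCDC24, which overlaps it by 5029 bases on the other strand, fell by 0.53 on the log2 scale (edgeR adjusted p = 0.0423). SLC6A6 encodes the taurine carrier. It fell, with 18.5, 18.1 and 16.3 FPKM in tau-labelled libraries and 26.9, 29.2 and 27.9 FPKM in control-labelled ones (log2 fold change -0.79, SE 0.10, edgeR adjusted p = 2.31e-04).

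SLC6A8 encodes the creatine carrier. It had 32.5, 32.1 and 36.1 FPKM in tau-labelled and 32.9, 27.2 and 24.9 FPKM in control-labelled libraries and did not pass (log2 fold change 0.12, SE 0.14, edgeR adjusted p = 0.511). Offsets for GC content and length gave it a call (0.39, edgeR adjusted p = 0.00131), and reads shared with its pseudogene SLC6A10P, which had at most 15 counts, are of uncertain assignment. SLC6A15, the carrier B0AT2 of branched-chain amino acids and proline, rose. It had 1.58, 1.88 and 1.64 FPKM in tau-labelled and 0.934, 1.10 and 1.27 FPKM in control-labelled libraries (0.51, SE 0.13, edgeR adjusted p = 0.0110). The rise did not pass without tau-labelled library 2 (0.45, edgeR adjusted p = 0.0548) and was 0.06 with offsets for GC content and length (0.621). SLC6A17, a vesicular carrier of neutral amino acids in neurons, had 4.86, 5.17 and 5.14 FPKM in tau-labelled and 5.11, 3.78 and 3.66 FPKM in control-labelled libraries. Control-labelled library 1 lay among the tau-labelled values, and SLC6A17 did not pass (0.15, SE 0.16, edgeR adjusted p = 0.478) except without that library (0.35, edgeR adjusted p = 0.0479).

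Carriers that define monoamine, GABA and glycine neurons were at or near 0. SLC6A3, the dopamine carrier, and SLC6A5, the neuronal glycine carrier GLYT2, had at most 5 and 6 counts in a library. SLC6A4, the serotonin carrier, had at most 12 counts and SLC6A11, the GABA carrier GAT3, at most 29, and neither passed. SLC6A7, the proline carrier, at 15 to 23 counts in each library, and SLC6A16, at 13 to 40, did not pass either. SLC6A14, SLC6A18 and SLC6A20, carriers known from epithelia, had at most 4 counts in a library and were not tested.

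In the SLC36 family, SLC36A1 encodes PAT1, a proton-coupled carrier that exports small amino acids from lysosomes and endosomes. It had 3.68, 3.44 and 3.28 FPKM in tau-labelled libraries, against 1.96, 1.70 and 1.80 FPKM in control-labelled ones. It rose without overlap (log2 fold change 0.81, SE 0.13, edgeR adjusted p = 9.57e-04). SLC36A4, which encodes PAT4, averaged 1.44 ± 0.191 FPKM in tau-labelled and 1.496 ± 0.292 FPKM in control-labelled libraries (SD, n = 3 each) and did not pass (-0.17, SE 0.16), though offsets for GC content and length moved it to -0.76 (edgeR adjusted p = 2.40e-04). SLC36A2, the renal PAT2, lies 89.5 kb from SLC36A1 and had at most 5 counts.

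In the SLC38 family, which moves glutamine and other neutral amino acids, SLC38A1 and SLC38A7 rose, and SLC38A3, SLC38A4 and SLC38A5, all under 1 FPKM, fell, the last 2 with calls that several settings ended. SLC38A2, SLC38A6, SLC38A9 and SLC38A10 did not pass. SLC38A1 encodes SNAT1, a sodium-driven importer of glutamine (chromosome 12, 46183063 to 46270017). It had 18.3, 23.1 and 17.7 FPKM in tau-labelled libraries, against 5.99, 10.1 and 11.9 FPKM in control-labelled ones. It rose despite a wide spread in the control-labelled group (log2 fold change 0.97, SE 0.21, edgeR adjusted p = 0.00431), and by 0.48 with offsets for GC content and length. SLC38A2 encodes SNAT2, the importer that cells are known to raise when amino acids run short. It had 43.9, 48.5 and 43.1 FPKM in tau-labelled and 42.8, 49.4 and 56.8 FPKM in control-labelled libraries, which overlapped. It did not pass (-0.25, SE 0.11, edgeR adjusted p = 0.0881), but it did without control-labelled library 1 (-0.33, edgeR adjusted p = 0.0379), with upper-quartile scaling (-0.35, 0.0227) and when GC content and length entered as offsets (-0.71, 3.69e-05). The ratio of SLC38A1 to SLC38A2 FPKM was 0.418, 0.476 and 0.411 in tau-labelled libraries, against 0.140, 0.204 and 0.210 in control-labelled ones, so it separated by label.

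Other carriers of this family sit on internal membranes. SLC38A7 encodes SNAT7, which exports glutamine from lysosomes. It had 7.38, 7.93 and 8.89 FPKM in tau-labelled and 5.89, 4.36 and 4.57 FPKM in control-labelled libraries and rose (log2 fold change 0.59, SE 0.16, edgeR adjusted p = 0.0133), but not without control-labelled library 2 (0.49, edgeR adjusted p = 0.0735). SLC38A9, the lysosomal arginine sensor of mTORC1, averaged 1.91 ± 0.405 FPKM in tau-labelled and 1.61 ± 0.402 FPKM in control-labelled libraries (SD, n = 3 each) and did not pass. SLC38A10 had 11.7, 11.5 and 14.0 FPKM in tau-labelled and 11.5, 9.03 and 8.85 FPKM in control-labelled libraries. Its groups barely separated in FPKM and it did not pass (0.22, SE 0.15, edgeR adjusted p = 0.260), except with limma on FPKM or TPM (0.33 to 0.37, limma adjusted p = 0.0364 to 0.0486) and when GC content and length entered as offsets (0.50, edgeR adjusted p = 3.79e-04). SLC38A6 overlapped between groups, at 8.02, 9.72 and 7.51 FPKM in tau-labelled and 8.08, 6.94 and 9.22 FPKM in control-labelled libraries, and did not pass.

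SLC38A3 encodes SNAT3, which moves glutamine in and out of astrocytes. It had 0 counts in each tau-labelled library, against 60, 96 and 56 counts in the control-labelled ones. Set against 3 counts over the 3 tau-labelled libraries, the floor used for a group at 0, it was at least 75.2-fold lower (edgeR adjusted p = 2.51e-04). SLC38A4, which encodes SNAT4, had 0, 15 and 7 counts in tau-labelled and 52, 58 and 39 counts in control-labelled libraries and fell (log2 fold change -2.83, SE 0.88, edgeR adjusted p = 0.0268). That fall did not pass without control-labelled library 1 (-2.80, edgeR adjusted p = 0.0570), control-labelled library 2 (-2.70, 0.0837) or tau-labelled library 3 (-2.77, 0.0790), or with no filter on low counts (-2.83, 0.0750). ENSG00000257261, which overlaps SLC38A4 by 61237 bases on the other strand, had 149 counts over the tau-labelled and 335 over the control-labelled libraries and fell too (-1.25, edgeR adjusted p = 0.00976). SLC38A5, which encodes SNAT5, had 8, 10 and 15 counts in tau-labelled and 51, 23 and 28 in control-labelled libraries and fell narrowly (-1.72, SE 0.59, edgeR adjusted p = 0.0401). It lost its call without any single library, at -1.96 to -1.29 (edgeR adjusted p = 0.0530 to 0.202). It also lost it with DESeq2 (-1.73, DESeq2 adjusted p = 0.0665), with no filter on low counts (-1.71, edgeR adjusted p = 0.0642) and when GC content and length entered as offsets (-1.47, 0.0546). SLC38A8 had at most 4 counts and was not tested. SLC38A1, SLC38A2 and SLC38A4 lie beside each other on chromosome 12, with gaps of 88.2 and 392 kb, and SLC38A1 rose, SLC38A2 did not pass and SLC38A4 fell.

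The SLC43 family held the largest fitted rise among the members tested. SLC43A3 encodes an equilibrative carrier of purine nucleobases (chromosome 11, 57406954 to 57427580). It had 79.4, 75.2 and 79.9 FPKM in tau-labelled libraries, against 33.1, 23.6 and 25.7 FPKM in control-labelled ones. The lowest tau-labelled value lay far above the highest control-labelled one (2.61-fold higher, log2 fold change 1.39, SE 0.15, edgeR adjusted p = 1.05e-04). SLC43A1, the carrier LAT3 of branched-chain amino acids, lies on the same strand as SLC43A3 with a gap of 57.0 kb between them, and fell. It had 0.174, 0.210 and 0.118 FPKM in tau-labelled and 0.423, 0.647 and 0.340 FPKM in control-labelled libraries (-1.61, SE 0.37, edgeR adjusted p = 0.00657). SLC43A2, which encodes LAT4, had 0.272 to 0.299 FPKM in tau-labelled and 0.203 to 0.258 FPKM in control-labelled libraries and did not pass (0.17, SE 0.21, edgeR adjusted p = 0.568).

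**Figure D3:**
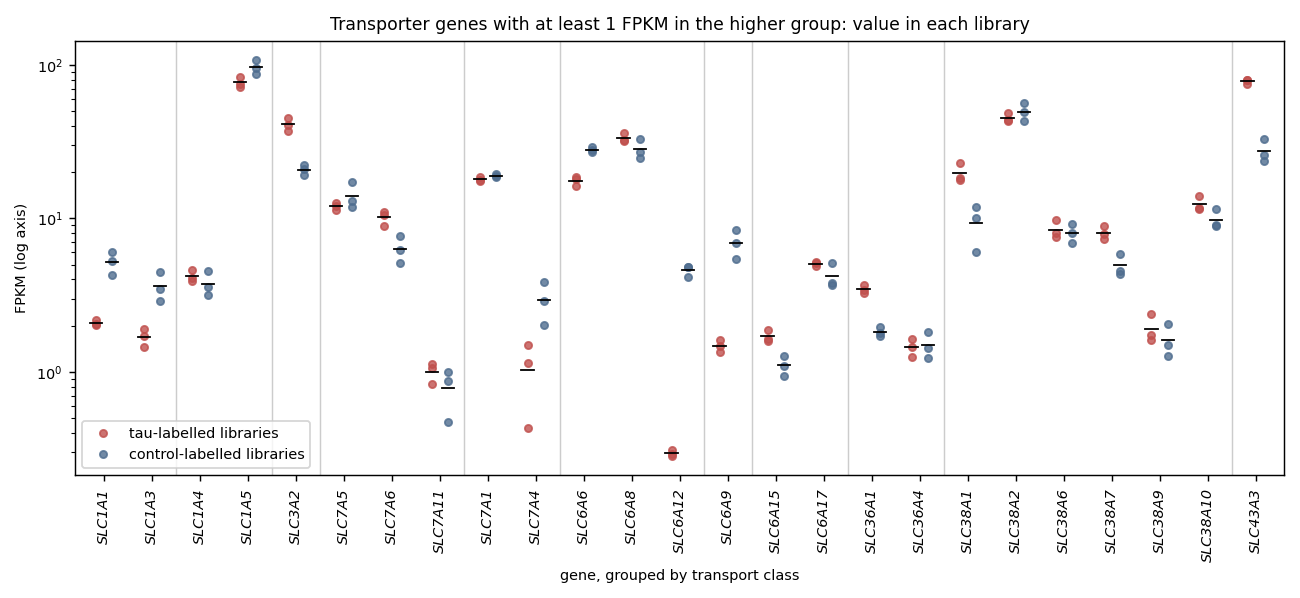
FPKM on a log axis for the 25 tested members whose higher group averaged 1 FPKM or more, 3 tau-labelled libraries left and 3 control-labelled libraries right of each gene. Points are libraries and short lines are group means. SLC6A12 lies at 0.285 to 0.309 FPKM in tau-labelled and 4.14 to 4.83 FPKM in control-labelled libraries, SLC6A9 at 1.34 to 1.62 FPKM in tau-labelled and 5.43 to 8.46 FPKM in control-labelled ones, and SLC43A3 at 75.2 to 79.9 FPKM in tau-labelled and 23.6 to 33.1 FPKM in control-labelled ones.

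Levels between genes were compared per length. In the tau-labelled libraries SLC43A3 (78.2 ± 2.57 FPKM) and SLC1A5 (76.8 ± 5.56) came first on the authors' FPKM and did not differ beyond their spread there, followed by SLC38A2 (45.2 ± 2.92) and SLC3A2 (40.9 ± 3.88; SD, n = 3). In the control-labelled libraries SLC1A5 (96.4 ± 9.85 FPKM) came first and SLC38A2 (49.7 ± 6.98) next, while SLC6A8 (28.4 ± 4.14), SLC6A6 (28.0 ± 1.17) and SLC43A3 (27.5 ± 4.98) were not separable (SD, n = 3). The authors' FPKM divides by a length close to the union of all annotated exons, which lowers genes with many transcripts. That length was 22898 bases for SLC1A3 and 6886 for SLC3A2, whose longest GENCODE v29 transcripts have 4170 and 2222 bases. Recomputed on the longest transcript, SLC43A3 had 144.8 ± 4.30 FPKM in the tau-labelled libraries, above SLC3A2 (126 ± 11.5) and SLC1A5 (95.3 ± 6.56; SD, n = 3), which then stood apart from it. In the control-labelled libraries SLC1A5 (120 ± 12.2 FPKM) stayed first, ahead of SLC38A2 (71.3 ± 10.2) and SLC3A2 (64.5 ± 4.49; SD, n = 3). SLC1A3 then had 9.27 FPKM in tau-labelled and 19.8 FPKM in control-labelled libraries, above SLC1A1 (2.39 FPKM in tau-labelled and 5.98 FPKM in control-labelled libraries).

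Summed over the 48 members, FPKM was 403, 403 and 417 in tau-labelled libraries, against 360, 373 and 355 in control-labelled ones. The SLC43 family took 19.3% ± 0.522 of this sum in tau-labelled and 7.79% ± 1.45 in control-labelled libraries (SD, n = 3 each), or 21.2% ± 0.537 in tau-labelled and 9.15% ± 1.67 in control-labelled ones on the longest transcripts. Heavy chains took 10.02% ± 0.772 in tau-labelled and 5.73% ± 0.271 in control-labelled libraries, or 18.4% ± 1.32 in tau-labelled and 11.3% ± 0.609 in control-labelled ones on the longest transcripts, while SLC1A4 and SLC1A5 together took 19.9% ± 1.09 in tau-labelled and 27.6% ± 2.201 in control-labelled ones. Glutamate carriers took 0.930% ± 0.0870 in tau-labelled and 2.44% ± 0.498 in control-labelled libraries, or 1.71% ± 0.223 in tau-labelled and 4.54% ± 1.01 in control-labelled ones on the longest transcripts, and the glycine and proline carriers 0.380% ± 0.0242 in tau-labelled and 1.93% ± 0.369 in control-labelled ones. The SLC38 share overlapped between the groups, at 23.5% ± 1.83 in tau-labelled and 23.2% ± 2.85 in control-labelled libraries. Some class sums were nearly all 1 gene. SLC43A3 held 78.2 of 78.6 FPKM of the SLC43 sum in tau-labelled and 27.5 of 28.2 FPKM in control-labelled libraries. SLC6A9 held 1.48 of 1.55 FPKM of the glycine and proline sum in tau-labelled and 6.95 of 7.01 FPKM in control-labelled ones. The heavy chain sum was nearly all SLC3A2.

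**Figure D4:**
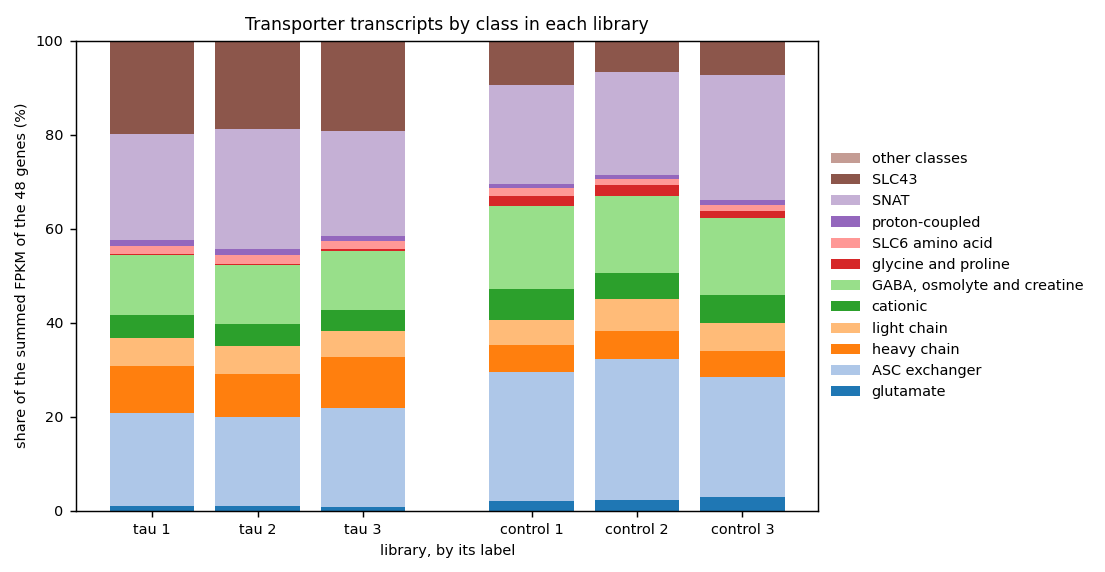
Share of the summed FPKM of the 48 members (y axis, %) held by each transport class in each library, tau-labelled left and control-labelled right. The SLC43 and heavy chain blocks are larger, and the ASC exchanger (SLC1A4 and SLC1A5) and GABA, osmolyte and creatine blocks smaller, in the 3 tau-labelled libraries.

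Of 27 regulators and partners of these carriers, 25 were tested and 6 rose (24.0%) and 6 fell (24.0%), near the 21.3% and 21.4% of all genes tested (median log2 fold change 0.03). ATF4, the transcription factor of the amino acid response, fell, with 54.3, 55.7 and 61.1 FPKM in tau-labelled and 132, 178 and 147 FPKM in control-labelled libraries (-1.53, SE 0.13, edgeR adjusted p = 3.00e-05). CEBPB, a partner of ATF4, fell by 0.85 on the log2 scale (edgeR adjusted p = 4.59e-04). NEDD4L, a ubiquitin ligase that removes carriers from the membrane, rose by 0.99 (9.50e-05). MYC, known to raise glutamine carrier genes, rose, with 23.9, 23.0 and 20.7 FPKM in tau-labelled and 9.85, 9.96 and 8.43 FPKM in control-labelled libraries (1.14, SE 0.12, edgeR adjusted p = 1.09e-04). The groups of ATF4 and of MYC did not overlap.

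Of 40 genes by which mTORC1 senses amino acids, 39 were tested and 9 rose (23.1%) and 10 fell (25.6%), again near the shares of all genes (median 0.001). Subunits of the same Rag GTPase system went opposite ways. RRAGD rose, with 19.0, 19.8 and 17.2 FPKM in tau-labelled and 7.64, 7.55 and 8.16 FPKM in control-labelled libraries (log2 fold change 1.15, SE 0.10, edgeR adjusted p = 4.62e-05). RRAGA fell, with 46.7, 47.4 and 49.5 FPKM in tau-labelled and 87.4, 97.2 and 98.0 FPKM in control-labelled libraries (-1.09, SE 0.10, edgeR adjusted p = 5.12e-05). FNIP2, a partner of folliculin, rose by 2.00, and SESN3, a sestrin, fell by 1.81 on the log2 scale. Both were of low abundance. FNIP2 averaged 3.16 FPKM in tau-labelled and 0.730 FPKM in control-labelled libraries. SESN3 lay under 1 FPKM in both groups, at 0.220 FPKM in tau-labelled and 0.715 FPKM in control-labelled ones. Of 28 carriers of amino acids or transmitters in other families, 18 were tested and 4 rose (22.2%) and 4 fell (22.2%), near the shares of all genes too (median 0.004). CTNS, the lysosomal cystine exporter, rose by 0.72 and SLC25A13, the mitochondrial aspartate-glutamate carrier citrin, by 0.47, while SLC25A18, a mitochondrial glutamate carrier, fell by 0.85 and SLC15A4, a lysosomal histidine and peptide carrier, by 0.39. SLC25A13 did not pass without control-labelled library 2 (0.41, edgeR adjusted p = 0.0531), nor SLC15A4 without tau-labelled library 2 (-0.38, 0.0637), with library size alone (-0.28, 0.0528), with the replicate block (-0.39, 0.0696) or with limma on log2(TPM + 0.5) (-0.25, limma adjusted p = 0.0659).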

How the data were processed

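Libraries of poly(A) RNA were stranded by a dUTP-marked second strand and read as paired ends, per the labels' protocols. StringTie 2.1.6, HISAT2 2.2.1, cutadapt 1.9, DESeq2 and edgeR are named, with GRCh38, in the submitters' processing notes. Which tool counted, whether it used strand, and with which annotation is not given in the sources used here. Whole-number counts and FPKM values per gene and library are as the authors deposited them. For 10677 genes with over 200 counts in each library, the length implied by the authors' FPKM was 1.08 times the GENCODE v29 exon union at the median.

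Columns were matched to samples by title. Counts were tested on the whole table with edgeR 4.0.16 in R 4.3.3 (filterByExpr with a minimum count of 10 and a total of 15, TMM, quasi-likelihood test, group as the sole term, two-sided, Benjamini-Hochberg adjustment), and the script was tested on simulated data. The SE is the log2 fold change divided by the root of F. Alternatives used DESeq2 1.42.0, limma 3.58.1 on log2(FPKM + 0.5), other scalings and filters, left-out libraries, and, chosen after seeing the data, offsets for GC content and length and FPKM on the longest transcript. Tested members whose higher group averaged 1 FPKM or more were named, with values per library from 5 FPKM or from a log2 fold change of 1, and others were added after their values were seen, as were the promoters shown. From the other lists the rule took the 2 smallest p in each direction. Members, lists and roles were chosen with earlier results of these data known. No molecular identifiers are named, so counts are of sequenced fragments and not of separate molecules. Their precision may be lower than counting error alone would give.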

Additional observations from a re-analysis of the deposited data

How the results depend on the processing

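Over 18 other settings, MAPT and 13 of the 19 members called kept their direction and their call wherever they were tested. The exceptions, SLC1A5, SLC6A15, SLC7A8, SLC38A4, SLC38A5 and SLC38A7, kept their direction and are given beside their values. Members that rose numbered 6 to 8 and members that fell 9 to 12 when a library was left out. Members that fell numbered 7 with a minimum mean of 1 FPKM and with limma on log2(FPKM + 0.5), log2(FPKM + 0.1) and log2(TPM + 0.5), where 24 members were tested and those under the minimum were not. The limma settings tested 11129 genes, against 17927, of which 2330, 2317 and 2140 fell (20.9%, 20.8% and 19.2%, against 21.4%) and 4013, 3980 and 4011 rose (35.8% to 36.1%, against 21.3%). Leaving out a library gave 2843 to 3803 genes that rose and 2892 to 3920 that fell, and for MAPT log2 fold changes of -1.32 to -1.06. In the list of carriers of other families, genes that rose (4) numbered 2 with upper-quartile scaling, with no filter on low counts and with the replicate block, 8 with offsets for GC content and length, and 1 to 4 without a library. Genes that fell there (4) numbered 1 with library size only, with TPM and with the replicate block, 2 with limma on FPKM and 2 to 4 without a library. The mTORC1 list gave 9 rises and 9 to 12 falls, and the regulators 5 to 6 of each, when a library was left out. The cause was not tested.

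Same-numbered libraries did not deviate together (correlations of -0.0938 to -0.0108 for the 3 pairs), so the numbers were not taken as pairs. With the replicate number as a block, 7 members rose and 11 fell, 3181 and 3139 of all genes did, and SLC38A5 alone among the members called lost its call (-1.65, edgeR adjusted p = 0.118). At this depth members with under about 10 counts in each library could not be tested, and differences in them were not detectable.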
